A study of Mus musculus with 8 samples.

Results

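The locus described here is a 3.5 Mb window of mouse chromosome 3, starting at 90000000 on the mm9 assembly, which was drawn to take in S100 genes and the epidermal differentiation complex. Its members are the hotspots, that is the intervals enriched for immunoprecipitated sequence tags, whose start lies in the window. There were 1040 of them among the 820608 hotspots of the 6 deposited lists. Hotspots that overlapped by at least 1 bp were merged, which gave 645 regions in the window out of 532751 in the genome. At the borders, the first hotspot inside ran from 90004947 to 90005409 (Brg1 replicate 2) and the last outside before it from 89986636 to 89987041 (CHD4 replicate 2). At the far end the last inside ran from 93463301 to 93463584 (CHD4 replicate 2), and the next outside from 93548734 to 93549058 (Brg1 replicate 1). The class of a region is the set of antibodies that had a hotspot there.

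The lists come from chromatin immunoprecipitation and sequencing of the 3134 line, a murine mammary epithelial cell line that descends from a single subclone, without treatment. Antibodies to Brg1 (monoclonal), CHD4 and Snf2h were used, with replicates 1 and 2 of each. The labels also describe tetracycline-regulated 3134 lines that express dominant-negative Snf2h or Chd4, and none of the 6 libraries is labelled as one of them. All 6 libraries therefore share 1 cell line and 1 condition, nothing says that replicates were separate cultures, and the spread between libraries may be technical.

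Brg1 is the ATPase of SWI/SNF complexes, which slide and evict nucleosomes. CHD4 is the ATPase of the NuRD complex, which joins nucleosome remodeling with histone deacetylation, and Snf2h is that of ISWI complexes, which space nucleosomes. The epidermal differentiation complex is a cluster of genes for the cornified envelope of stratified epithelia, expressed mostly in differentiating keratinocytes, and the S100 genes beside it encode small calcium-binding proteins, several of which are expressed in many epithelia. In the RefSeq table for GRCm38, the order along chromosome 3 starts with a run of 12 S100 genes from S100a1 to S100a9. The run is followed by the peptidoglycan recognition genes Pglyrp4 and Pglyrp3, by Lor (loricrin), 14 Sprr genes, Ivl (involucrin) and 21 Lce genes, by 7 genes of the filaggrin type from Crnn to Tchhl1, and finally by S100a11 and S100a10. That table is on another build than the hotspots, so it gives neighbours only, and no hotspot was assigned to a gene. No mm9 sequence was used here, so no region is shown as bases. The lists hold no expression values, so the epithelial label could not be checked against marker genes.

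Counts per library followed list length. Brg1 had 139 and 315 hotspots in the window in replicates 1 and 2, CHD4 had 66 and 352, and Snf2h had 56 and 112. The whole lists held 32310 to 293135 hotspots with lowest Z scores of 2.00 to 9.49, and the number of tags behind them is unknown. Each library was therefore compared with itself. The DNA inputs were not analysed here, so enrichment cannot be told apart from copy number or mappability at any place named.

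As a whole, the window was close to an average stretch of genome. Hotspots per Mb were 0.887 and 0.892 times those of the rest of the list for Brg1 (replicates 1 and 2, here and below), 1.22 and 0.884 times for CHD4, while Snf2h had 1.28 and 1.03 times. The mean log2 ratio was 0.028 ± 0.242 (SD, n = 6 libraries), with 3 libraries above and 3 below 0 (two-sided exact sign-flip permutation p = 0.781, Benjamini-Hochberg adjusted over 5 tests 0.781). Among all windows of the same length, moved in steps of 500 kb, 24.8% to 82.7% had fewer hotspots, depending on the library. A grouping of the libraries by antibody was not detected in these ratios: 53.2% of their sum of squares lay within antibodies (exact permutation p = 0.4 over the 15 splits into pairs, adjusted 0.664, smallest possible p 0.0667).

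The window was sparser than its surroundings. All 6 libraries had fewer hotspots per Mb in it than in the flanks of 3.5 Mb on either side, at ratios of 0.590 and 0.746 for Brg1. The ratios were 0.571 and 0.769 in CHD4 and 0.718 and 0.580 in Snf2h. The mean log2 ratio was -0.61 ± 0.20 (SD, n = 6), and the exact permutation p was 0.03125, the smallest that 6 libraries allow, and 0.156 after adjustment over 5 tests. The test asks whether libraries point the same way at this 1 locus, and not whether the locus differs from others.

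**Figure D1:**
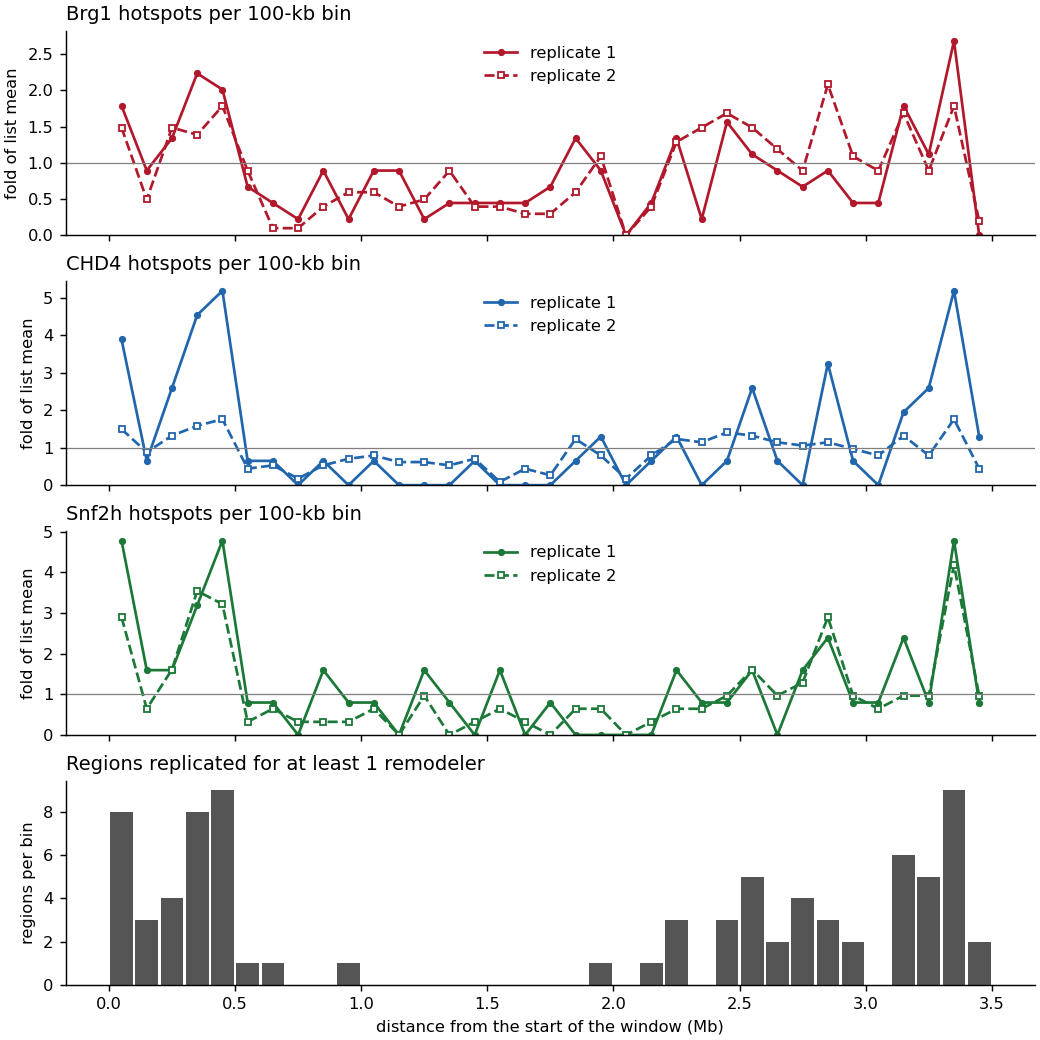
Hotspots per 100-kb bin over the mean of the same list outside the window, for both libraries of each antibody, and the number of replicated regions per bin (bottom), against distance from the start of the window in Mb. The highest mean ratios over the 6 libraries lie in the first 0.5 Mb and at 3.3 Mb (3.40), followed by 2.11 at 2.8 Mb. From 0.5 Mb up to 2.2 Mb the mean stays below 1, and beyond that bins lie on both sides of 1.

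That average hid a division along the window, steep at 90500000 and gradual from 92000000 on. The borders of the 3 stretches that follow were chosen after the profile had been seen, so their values are a description without a test. In the first 0.5 Mb (90000000 to 90500000), hotspots per Mb stood at 1.65 and 1.33 times the rest of the list for Brg1, and at 3.37 and 1.41 times for CHD4. Snf2h stood at 3.19 and 2.38 times. All 6 libraries were above the rest of their list there, with a mean of 2.22 ± 0.902 (SD, n = 6). In the next 1.5 Mb (90500000 to 92000000) Brg1 had ratios of 0.610 and 0.502, CHD4 of 0.345 and 0.563 and Snf2h of 0.638 and 0.408. No library of the middle stretch reached any library of the first, and its mean was 0.511 ± 0.116. In the last 1.5 Mb (from 92000000 on) the mean was 1.16 ± 0.170, with a range of 0.908 to 1.38.

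The division was sharper for tall hotspots, ranked by their maximum tag density within their list. In the taller 50% of each list, the first 0.5 Mb stood at 4.26 ± 1.62 times the rest of the list (SD, n = 6, range 2.53 to 6.47). The middle 1.5 Mb stood at 0.107 ± 0.0556 times (range 0.0426 to 0.173). It held 2 and 13 such hotspots of Brg1, 1 and 14 of CHD4, and 1 and 1 of Snf2h. The last 1.5 Mb taken as a whole stood at 1.16 ± 0.180 times. The hotspots left in the middle were low ones. Their median percentiles were 17.0 and 30.1 in the Brg1 lists, 7.06 and 27.1 in the CHD4 lists, and 11.6 and 13.1 in the Snf2h lists. The 2 end stretches pooled had medians of 61.6 to 73.4, but the last stretch was uneven. In segments of 500 kb its medians were 19.5 to 51.5 from 92000000, 32.5 to 51.9 from 92500000 and 66.2 to 79.6 from 93000000. The first 0.5 Mb had medians of 68.3 to 87.3.

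**Figure D2:**
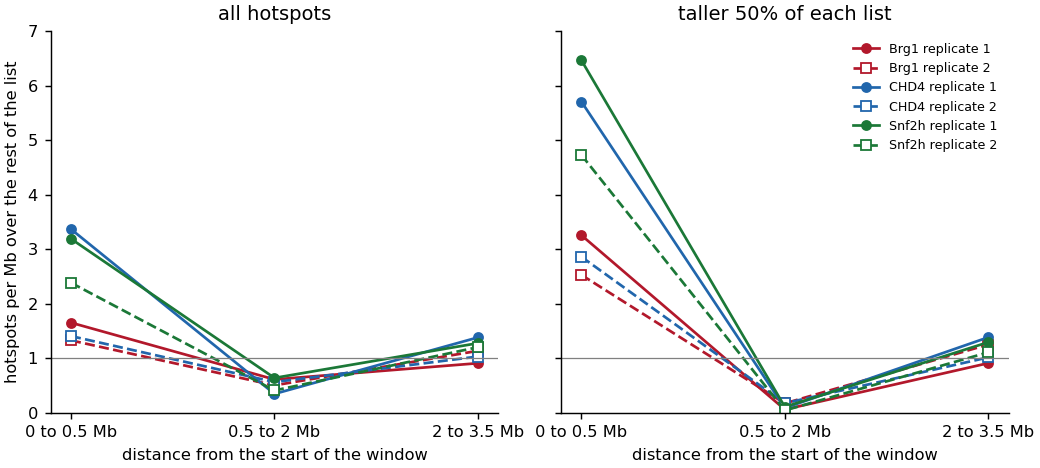
Hotspots per Mb in the first 0.5 Mb, the middle 1.5 Mb and the last 1.5 Mb of the window over the rest of the same list, for all hotspots (left) and for the taller 50% of each list (right), with 1 line per library and the grey line at 1. All 6 lines dip below 1 in the middle stretch, to between 0.345 and 0.638 on the left and between 0.0426 and 0.173 on the right.

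Height over the window as a whole was less uniform between libraries. The median percentile of window hotspots was 50.2 and 54.6 in the Brg1 lists, 59.4 and 49.5 in the CHD4 lists, and 67.7 and 57.1 in the Snf2h lists. It lay above the median outside the window in 4 libraries and equalled it in Brg1 replicate 1 and CHD4 replicate 2, where many hotspots tie (mean difference 6.52 ± 7.22 points, SD, n = 6, exact permutation p = 0.125, adjusted 0.312).

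By the antibodies of either library, the window had nearly the makeup of the genome. Brg1 alone accounted for 246 regions (38.1%, against 37.9% of all merged regions of the genome), CHD4 alone for 223 (34.6% against 34.3%) and Snf2h alone for 42 (6.51% against 6.25%). Regions of Brg1 and CHD4 numbered 59 (9.15% against 11.4%), those of Brg1 and Snf2h 9 (1.40% against 1.49%) and those of CHD4 and Snf2h 10 (1.55% against 1.2%). Hotspots of all 3 antibodies were found in 56 regions, 8.68% (95% Wilson interval 6.75% to 11.1%), against 7.42% in the genome and 18.3% in the flanks. Most regions, 496 of 645, came from a single list, and 178 of these were from Brg1 replicate 2 and 214 from CHD4 replicate 2, whose lists reach down to Z scores of 2.00. Single-list regions made up 76.9%, against 76.6% in the genome. Counted with every partner, Brg1 was in 370 regions (57.4% against 58.3%), CHD4 in 348 (54.0% against 54.3%) and Snf2h in 117 (18.1% against 16.4%). Regions of 2 or more antibodies were 134, 20.8% against 21.5%. Wilson intervals cover counting error only, and neighbouring regions are not independent.

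Sharing with another antibody did not move in 1 direction. In the window, 50.4% and 40.6% of Brg1 hotspots overlapped a hotspot of another antibody, 86.4% and 38.1% of CHD4 hotspots did, and 76.8% and 72.3% of Snf2h hotspots did. The difference from the rest of the list averaged 0.745 ± 3.01 percentage points (SD, n = 6), with 3 libraries above and 3 below (exact permutation p = 0.531, adjusted 0.664).

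A site was called replicated where replicates 1 and 2 of an antibody each had a hotspot in the merged region. This held for 81 regions, 12.6% of the 645, against 11.5% of the merged regions of the genome, a share near the background. The sites of Brg1 numbered 65 (10.1% against 9.6%), those of CHD4 45 (6.98% against 5.65%) and those of Snf2h 35 (5.43%, Wilson interval 3.93% to 7.45%, against 3.39%). Relative to the rest of the genome, this was 0.935 times as many sites per Mb for Brg1, 1.10 times for CHD4 and 1.43 times for Snf2h. Relative to the flanks it was 0.448, 0.476 and 0.583 times. All 3 remodelers were replicated at 19 regions (2.95%, Wilson interval 1.89% to 4.55%, against 1.96%). Those 19 are the regions with a hotspot in every list.

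Of the classes of replicated sites, Brg1 alone was the most frequent with 25 regions (3.88% of merged regions against 4.81% in the genome), followed by all 3 remodelers with 19 and by the pair of Brg1 and CHD4 with 16 (2.48% against 2.43%). Snf2h alone had 6 regions (0.930% against 0.633%). CHD4 alone, the pair of Brg1 and Snf2h, and the pair of CHD4 and Snf2h had 5 regions each (0.775%), against 0.858%, 0.405% and 0.396% in the genome. Of the 65 Brg1 sites, 36.9% also held Snf2h (Wilson interval 26.2% to 49.1%), against 24.6% in the genome, and of the 45 CHD4 sites 53.3% did (39.1% to 67.1%), against 41.7%. In the other direction, 68.6% of Snf2h sites held Brg1 and 68.6% held CHD4, against 69.7% and 69.4%. Regions replicated for 2 or more remodelers numbered 45, which is 6.98% of the merged regions against 5.19% in the genome. Replicated regions had a median width of 905 bp and those of all 3 remodelers one of 1683 bp, against 871 and 1500 bp in the genome.

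**Figure D3:**
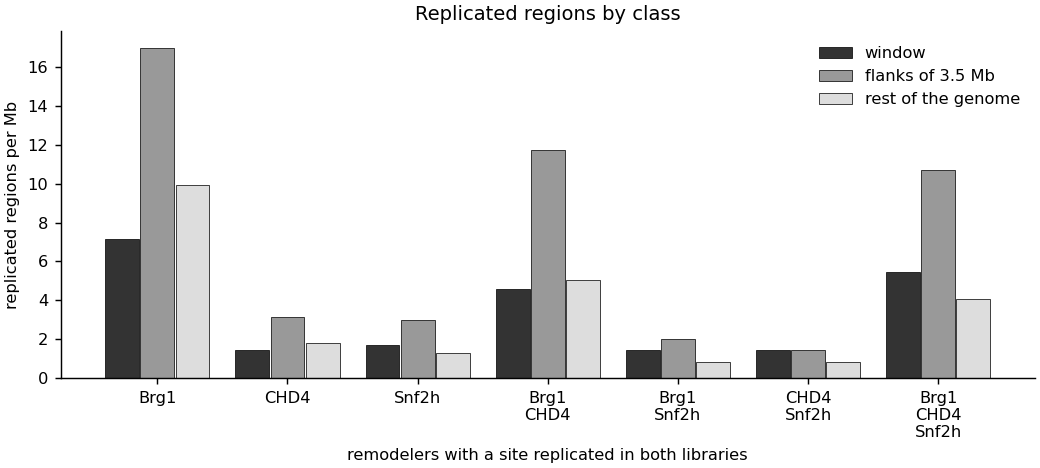
Replicated regions per Mb by class, with bars for the window (black), the 2 flanks of 3.5 Mb (grey) and the rest of the genome (light), from counts with no error bar. The window lies below its flanks in every class except CHD4 with Snf2h, where both have 1.43 per Mb.

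Few of the replicated regions lay in the middle stretch of the window. The first 0.5 Mb held 32 of the 81, which is 2.69 times as many per Mb as the rest of the genome. These regions made up 30.8% of its 104 merged regions, against the genome's 11.5%. The middle 1.5 Mb held 4 (1.78% of 225 regions), and the last 1.5 Mb held 45 (14.2% of 316). Of these 45, successive segments of 500 kb held 7, 16 and 22. Regions of all 3 remodelers numbered 12 in the first 0.5 Mb (5.93 times the rest of the genome), 1 in the middle and 6 in the last stretch (0.988 times). The single one of the middle, at 90513786 to 90514560, lies close to its left border.

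The 3 remodelers shared this division. By replicated sites Snf2h had the highest ratio in the first 0.5 Mb, but by hotspots of single lists CHD4 replicate 1 did. That list stood at 3.37 times, against 3.19 and 2.38 times in the Snf2h lists. Snf2h replicate 1 and CHD4 replicate 1, the shortest lists (32310 and 39797 hotspots), had the highest of those list ratios. Whether list length accounts for the order of the remodelers was not tested. Snf2h sites were 4.85 times as dense in the first 0.5 Mb as in the rest of the genome, CHD4 sites 3.43 times and Brg1 sites 2.82 times. In the last 1.5 Mb the ratios were 1.52, 1.31 and 1.18. These densities rest on 17, 20 and 28 sites in the first stretch and on 16, 23 and 35 in the last. The differences between remodelers were not tested. The first and last stretches also differed in the height of Snf2h sites. Their median percentile, averaged over both Snf2h lists, was 87.8 in the first stretch (range 76.3 to 98.4) and 65.5 in the last (29.2 to 92.7). Brg1 sites had medians of 86.0 and 83.5, and CHD4 sites of 87.0 and 78.8.

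**Figure D4:**
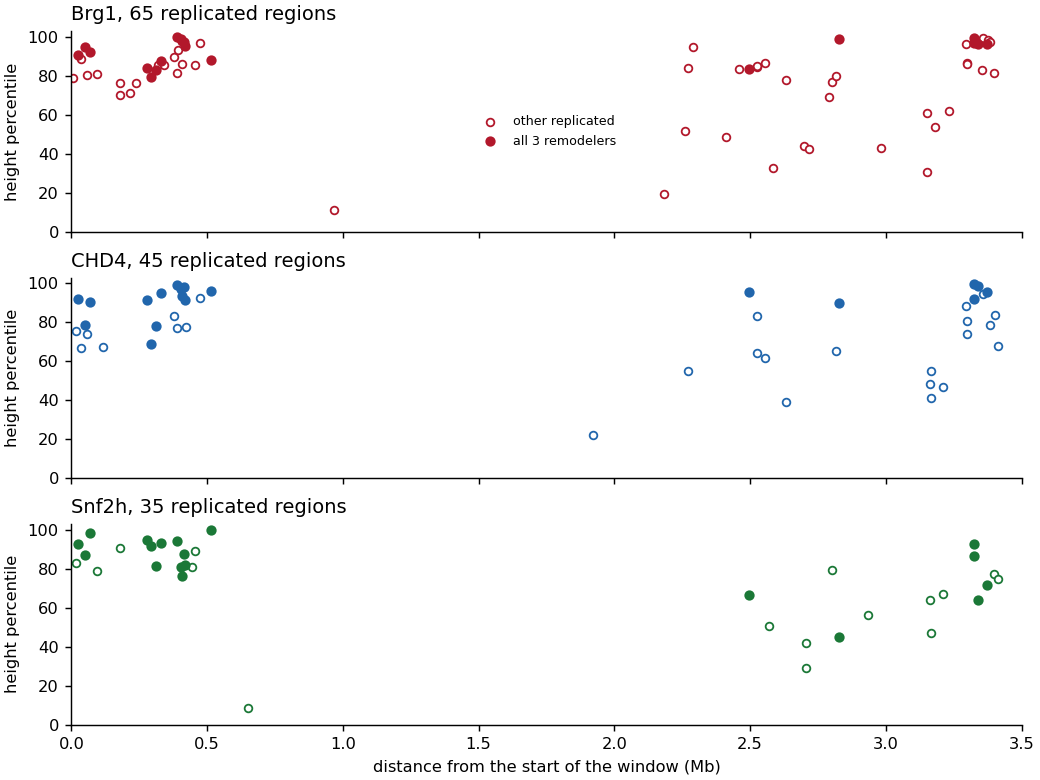
Replicated regions of Brg1, CHD4 and Snf2h against distance from the start of the window in Mb, with the percentile of their maximum tag density averaged over both lists of the antibody. Filled points mark regions replicated for all 3 remodelers, 12 of which lie in the first 0.5 Mb.

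In 100-kb bins, 14 of 35 held no replicated region (40%, against 30.4% of all bins of the genome), and 8 held a region of all 3 remodelers (22.9% against 27.2%). The bins that start at 90000000, 90300000, 90400000 and 93300000, were the 4 with at least 8 replicated regions, a level reached by 5.7% of the bins of the genome. They held 34 of the 81 replicated regions in all. The count of merged regions gave another order. The 5 bins with the most merged regions start at 93100000 (32 regions), 92400000 (30), 91800000 (29), 92300000 (28) and 93300000 (27), and their replicated regions numbered 6, 3, 0, 0 and 9.

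The longest stretch without a replicated region ran from 90967339 to 91921998, over 955 kb. Of 61182 such stretches in the genome, 104 were at least as long, and 6.54% of the genome lay in them. The stretch of the window was not free of hotspots: 151 merged regions lay in it, of which 142 came from a single list and 9 from 2 lists. Hotspots per Mb in it stood at 0.204 to 0.655 times the rest of the list. Its left border was a replicated Brg1 region at 90966961 to 90967338 and its right border a replicated CHD4 region at 91921999 to 91922632. Both were low, at percentiles of 17.0 and 5.65 in the Brg1 lists and of 8.67 and 35.3 in the CHD4 lists. The length depended on the lists used: it was 1610 kb at a common Z score of 9.49, and 150 to 393 kb when 1 library was left out and the other library of its antibody stood alone. For single remodelers, the longest stretch without a site was 1215 kb for Brg1, 1407 kb for CHD4 and 1846 kb for Snf2h. In the genome, 86, 177 and 117 stretches were at least as long, and 6.93%, 15.9% and 11.9% of the genome lay in them. The longest stretch with no hotspot of any list was 101 kb, from 92004079 to 92105119. Its sequence content was not analysed here.

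The 12 tallest regions of the window, by mean percentile over the 6 lists, were all replicated for all 3 remodelers, which the rule favours, since a list without a hotspot counts as 0. Of these, 9 started in the first 0.5 Mb, 2 lay together near the far end, and 1 lay just past the first border. The tallest was also the widest, 3350 bp with 13 hotspots at 90389073 to 90392422. Its maximum tag density was 506 and 155 for Brg1, 54.1 and 27.9 for CHD4, while Snf2h reached 27.7 and 64.3. Densities are in the units of the deposited files, whose scale is not given, and are compared by rank only. Its Brg1 hotspots ranked 2 of 115361 in replicate 1 and 39 of 260036 in replicate 2. Within 30 kb of it stood 4 more of the 12, at 90404155 to 90405959, 90408016 to 90410606, 90415793 to 90417514 and 90418050 to 90419914. All 4 were higher in the Brg1 lists, at percentiles of 92.7 to 99.5, than in Snf2h replicate 1, at 67.7 to 79.0. Snf2h replicate 2 stood at 82.3 to 96.7, above Snf2h replicate 1 in all 4, and at 90418050 to 90419914 also above Brg1 replicate 1 (96.4 against 92.7).

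The second tallest region lay at the other end, at 93325588 to 93327250, next to the region at 93323816 to 93325323, which ranked 8. It held the window's tallest hotspot in both CHD4 lists, with densities of 54.4 and 33.4. Its percentiles were 99.2 and 99.8 for CHD4, 99.1 and 99.5 for Brg1, and 89.2 and 96.2 for Snf2h. The third tallest, at 90513786 to 90514560, held the window's tallest hotspot in both Snf2h lists, with densities of 70.6 and 108. Those were at percentile 99.8 in each Snf2h list, against 91.5 and 85.3 in the Brg1 lists. The next replicated region, of Snf2h alone, starts at 90648947 and is low in both Snf2h lists, at percentiles of 7.81 and 9.21.

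At the other 4 of the 12, the highest percentile was that of a CHD4 or Snf2h list. At 90068621 to 90070432 the percentiles were 97.3 and 99.5 in the Snf2h lists and 82.2 and 98.9 in the CHD4 lists, against 92.6 and 92.0 for Brg1. At 90278802 to 90280694 they were 91.9 and 97.2 for Snf2h, 83.5 and 99.1 for CHD4, and 78.2 and 90.2 for Brg1. The remaining regions, at 90023712 to 90025405 and at 90329190 to 90329910, had mean percentiles of 91.7 and 92.0 over the 6 lists.

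Regions in which 1 or 2 remodelers were replicated are given next, the tallest of each class by the lists of its own antibodies. The tallest with Brg1 alone, at 93375772 to 93376777, had Brg1 densities of 114 and 71.5 and also a hotspot of CHD4 replicate 2 (20.3) and of Snf2h replicate 2 (24.4). The next, at 92289552 to 92290337, had 71.2 and 25.5 for Brg1 and 6.92 in CHD4 replicate 2. The tallest pair of Brg1 with CHD4, at 93357358 to 93360548, was 3191 bp wide, with 146 and 85.6 for Brg1, 31.2 and 17.0 for CHD4, and 23.6 in Snf2h replicate 2, and no hotspot in Snf2h replicate 1. The tallest pair of CHD4 with Snf2h, at 90016593 to 90018477, had 15.3 and 12.8 for CHD4 and 18.01 and 59.3 for Snf2h, and 10.4 in Brg1 replicate 2. The tallest pair of Brg1 with Snf2h, at 90456679 to 90457295, had 45.2 and 9.17 for Brg1 and 25.6 and 33.6 for Snf2h, and 15.9 in CHD4 replicate 1. With Snf2h alone, the region at 90443560 to 90444218 had 22.2 and 22.9 for Snf2h and 12.8 in CHD4 replicate 2. With CHD4 alone, the region at 93400533 to 93401777 had 20.8 and 9.64 for CHD4, 31.5 in Brg1 replicate 2 and 13.9 in Snf2h replicate 2. The next of that class, at 90421385 to 90422071, held 15.9 and 14.1 and no hotspot of any other antibody. A class therefore names the remodelers found in both of their libraries, and does not show that the others were absent.

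Among the 19 regions found in all 6 lists, Brg1 and Snf2h had no single order in the first part of the window. At the far end Snf2h was the lower of the 2. Each list's densities were ranked over the 10442 regions of the genome found in all 6 lists, and the 2 percentiles of an antibody were averaged. In the 13 regions from 90023712 to 90514560, the median was 50.6 for Brg1 (range 17.2 to 99.9), 72.0 for CHD4 (28.9 to 95.3) and 72.6 for Snf2h (41.7 to 98.8). Snf2h ranked above Brg1 in 7 of the 13 and above CHD4 in 7, and CHD4 ranked above Brg1 in 9. Brg1 already ranked above Snf2h at the common regions from 90389073 to 90419914, for example at 91.0 against 49.9 at 90404155. In the 6 regions from 92495226 to 93373431, the median was 77.1 for Brg1 (54.6 to 93.6), 81.5 for CHD4 (49.4 to 97.2) and 31.7 for Snf2h (8.84 to 76.7). Snf2h ranked below Brg1 and below CHD4 in 6 of 6, and CHD4 ranked above Brg1 in 4. The shares of the 10442 common regions with these orders were not computed here, so these counts stand without a background. By single lists, the medians of those 6 regions were 76.7 and 82.3 for Brg1, 80.0 and 80.8 for CHD4 and, for Snf2h, 41.5 and 22.3. The ranges of the 13 and the 6 regions overlapped for all 3 remodelers. The split was made after the values were seen and was not tested.

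Single regions show how far apart Brg1 and Snf2h could rank. At 92828985 to 92830270 the percentiles among common regions were 94.7 and 82.7 for Brg1, 70.4 and 28.4 for CHD4 and, for Snf2h, 13.1 and 4.6. At 90293768 to 90295192 they were 19.7 and 14.7 for Brg1, 18.4 and 39.4 for CHD4 and, for Snf2h, 67.7 and 87.5. Those are opposite orders of Brg1 and Snf2h in both libraries, at regions chosen for it. Replicates also disagreed at some places: at 92495226 to 92496995 Brg1 stood at 14.3 in replicate 1 and 94.9 in replicate 2. Snf2h stood at 39.6 and 17.7 there, so its place below Brg1 rested on Brg1 replicate 2. Both Brg1 lists gave the highest 2 of the 6 percentiles at 5 of the 19 regions, both Snf2h lists at 4 and both CHD4 lists at 3, against 16.8%, 21.6% and 5.91% of the common regions of the genome.

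**Figure D5:**
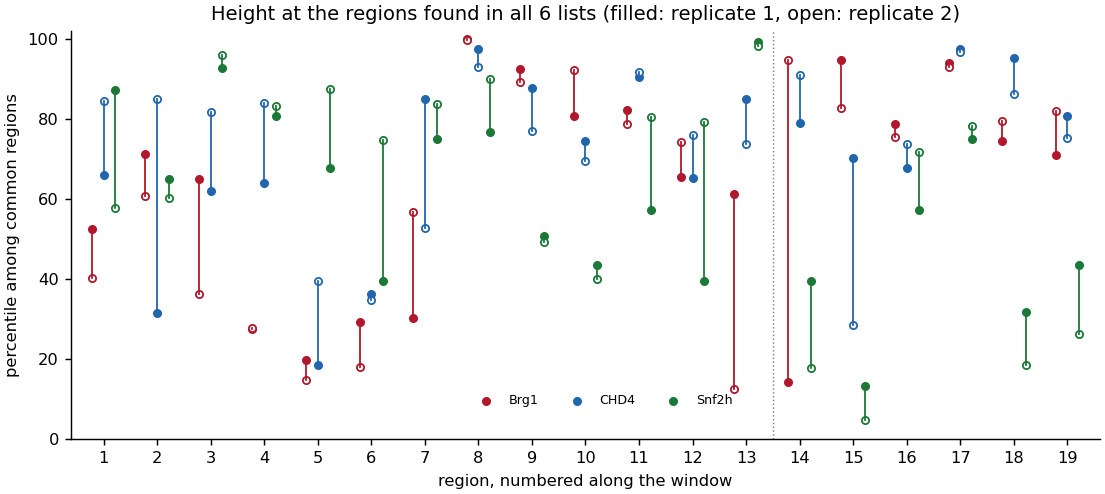
Percentile of maximum tag density among the regions of the genome found in all 6 lists, for the 19 such regions of the window numbered along it. Filled points are replicate 1 and open points replicate 2, a line joins the replicates, and the dotted line parts the first 13 regions from the last 6, where Snf2h (green) lies below the mean of Brg1 (red).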

How the data were processed

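The labels give 8 libraries of untreated 3134 cells, 2 for each of 3 remodelers and 2 DNA inputs, and the 6 remodeler libraries were analysed. CASAVA 1.6 and mm9 are named in the submitters' processing notes. Not given in the sources used here are the hotspot caller, its thresholds and whether inputs were subtracted. The authors deposited, per library, hotspots with their maximum and average tag density (a signal of unstated scale), a Z score and a p-value. The p-value was not used. Signal and score ranked or filtered hotspots within a list only, except for 1 common Z score. The labels' extraction text describes DNase I digestion, another assay.

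Positions were placed by hotspot start and read as closed intervals. Chromosome lengths are spans from the lowest start to the highest end in the 6 lists (2577 Mb in all). Percentiles are within a list, with ties averaged. Sign-flip tests used all 64 assignments over the 6 libraries and grouping by antibody the 15 splits into 3 pairs, adjusted together by Benjamini-Hochberg at 0.05. Regions were named by a rule: the 12 of highest mean percentile, the tallest 2 of each class of 1 or 2 remodelers, the widest, the 5 bins with most regions and the longest empty stretches. Not all of those 2 per class are printed. Other regions named were chosen after their values were seen. The members and lists were chosen with earlier results of these data known. Alternatives were the taller 50%, lists of equal size (32310), a common Z score, 500 bp windows, another overlap, background, flank or bin offset, and leaving out each library. The code was tested on simulated data. Python 3.11.15, numpy 2.4.6, scipy 1.17.1, pandas 2.3.3 and matplotlib 3.10.9 were used.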

Additional observations from a re-analysis of the deposited data

Results flagged for a closer look

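Brg1 and Snf2h lay on opposite sides of the rest of their lists in hotspot density over the window. Both Brg1 libraries were below (log2 ratios of -0.17 and -0.17) and both Snf2h libraries above (0.35 and 0.04), a difference of means of 0.37. This pair was not tested. With the 32310 tallest hotspots of each list, all 6 libraries were above, at 1.07 to 1.32 times the rest.

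CHD4 and Snf2h lay on opposite sides in sharing. The share of hotspots that overlapped another antibody was below that of the rest of the list in both CHD4 libraries (by -3.75 and -0.62 percentage points). It was above it in both Snf2h libraries (by 4.32 and 3.84), a difference of 6.27 points that was not tested. In each of these libraries the share outside the window lay inside the Wilson interval of the window's share. With the 32310 tallest hotspots of each list, the CHD4 libraries fell on both sides (0.86 and -1.98). Both Snf2h libraries stayed above (9.40 and 12.75).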

How the results depend on the processing

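No test passed an adjusted p of 0.05 (1 of 5 had an unadjusted p below it), and none did under the alternatives run, the lowest adjusted exact p being 0.0781. With 5 libraries the exact tests cannot pass, so leaving out a library bears on the values only. The mean log2 ratio to the flanks stayed negative in all 11 alternatives and the mean height difference positive in all 11. Without 1 library, density against the genome ran from -0.037 to 0.069 on the log2 scale, turning negative without CHD4 replicate 1 (-0.024) or Snf2h replicate 1 (-0.037). Sharing ran from -0.056 to 2.59 points, turning negative without Snf2h replicate 2 (-0.056). With the taller 50%, equal lists and a common Z score, regions with all 3 antibodies were 17.0%, 35.6% and 18.4% of the window (genome 13.8%, 28.1% and 14.7%), and those replicated for all 3 were 6.42%, 14.4% and 6.73% (genome 3.15%, 9.05% and 4.41%). Without 1 library, regions with all 3 antibodies ran from 5.67% to 9.59% (genome 3.52% to 7.97%). Those replicated for all 3 ran from 3.24% to 4.89% (genome 2.16% to 3.73%). Replicated regions numbered 53 with equal lists and 93 to 351 without 1 library, where the other library of the antibody counts alone (313 without Brg1 replicate 1, 147 without Brg1 replicate 2, 351 without CHD4 replicate 1, 125 without Snf2h replicate 1). The longest stretch without one was 1756 kb with the taller 50%, 1757 kb with equal lists, 1610 kb at a common Z score, 581 kb with 500 bp windows and 150 to 393 kb without any 1 of the 6 libraries. Bins without a replicated region numbered 0 to 10 without 1 library, with 6 or fewer without either Brg1 or Snf2h library or CHD4 replicate 1. For replicated regions, empty stretches and bins, genome values under these alternatives were not computed here. A change of the locus therefore cannot be told from a change of the lists. The middle 1.5 Mb stood at 0.107 times the rest with the taller 50% and at 0.142 times with equal lists. Libraries ranged from 0 to 0.638 with equal lists, the highest being Snf2h replicate 1, whose list that setting leaves unchanged. The mean was 0.462 at a common Z score, 0.397 by covered bp and 0.486 to 0.544 without 1 library. Snf2h ranked below Brg1 at 5 or 6 of the 6 common regions of the last 1.5 Mb without 1 Brg1 or Snf2h library. It ranked below CHD4 at 5 of 6 without Snf2h replicate 1, and also at 5 of 6 by average tag density.

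The replicate block, which compared libraries within a replicate number, put 29.8% of the sum of squares within antibodies (exact permutation p = 0.333). With only 6 arrangements it could not have passed 0.05, so it says nothing about the stability of that comparison. The labels do not say what a shared number means. Differences between replicates correlated over the 35 bins at 0.322 between Brg1 and CHD4, at 0.153 between Brg1 and Snf2h, and at -0.0764 between Snf2h and CHD4. The antibody comparison could not be fitted without 1 library. Alternatives for replicated regions, empty stretches, the middle stretch and the order of Snf2h were chosen after seeing the data.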

Other observations

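Over the 35 bins, hotspot counts of different lists moved together. Spearman's rho was 0.689 to 0.698 for the 3 pairs of the same antibody and 0.532 to 0.868 for the 12 other pairs, the highest being Brg1 replicate 2 with CHD4 replicate 2. The bins share the local sequence and the cell line, neighbouring bins are not independent, and these values are a description. CHD4 replicate 1 had no hotspot in 12 bins and Snf2h replicate 1 in 9, against 0 to 4 in the other lists. Over the genome, 40.4% and 34.3% of bins held none of these 2 lists' hotspots.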
